A study of Mus musculus with 30 samples.

Results

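Vehicle-treated IDG-SW3 cells at day 35 of differentiation were set against vehicle-treated IDG-SW3 cells at day 3, which are 6 of the 30 RNA-sequencing libraries of the series and 3 in each group. IDG-SW3 is 1 conditionally immortalised mouse bone cell line. It carries a temperature-sensitive large T antigen under an interferon-inducible promoter, so that it divides at the permissive temperature with interferon-gamma and matures without them. All 6 cultures had been expanded at 33 °C with 50 U/mL interferon-gamma, then moved to 37 °C without interferon-gamma in 50 µg/mL ascorbic acid and 4 mM β-glycerol phosphate on collagen-coated plates. Each received ethanol, the vehicle of a hormone tested in other cultures of the series, for 24 h before harvest. The labels call the cells osteocytic and the 3 replicates of each group biological. Time in culture, time since the end of interferon-gamma and 33 °C, and differentiation run together in this design and cannot be told apart. The comparison asks which transcripts distinguish the late culture from the early one.

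Osteoblasts secrete a matrix of type I collagen, and some of them are buried in it and become osteocytes. Along that path cells leave the cell cycle, load the matrix with acidic phosphoproteins that bind calcium, release phosphate with ectoenzymes such as alkaline phosphatase, and later secrete sclerostin and other regulators of bone turnover and of phosphate. RUNX2 and osterix (*Sp7*) are the transcription factors that commit cells to bone. Interferon-gamma switches on MHC and antiviral genes, and immediate-early and contractile genes are known targets of serum response factor.

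The libraries were made with a directional kit after rRNA depletion and held 36056152, 29101300 and 28114286 counts at day 35, against 45091654, 46242193 and 46496429 counts at day 3. The day 35 libraries had a count for 18753 to 21761 gene symbols and the day 3 libraries for 15346 to 17972. The 7SK small nuclear RNA took 4.35% to 6.95% of counts at day 35 and 1.96% to 4.55% at day 3, and rRNA genes took 0.180% to 1.13% at day 35 and 0.0786% to 0.170% at day 3. Log2 values of libraries correlated at 0.988 to 0.993 within day 35, 0.976 to 0.990 within day 3 and 0.922 to 0.949 between the days. Day 3 replicate 2 stood farthest from its group. What part these differences have in any result was not tested, so values that change without 1 library are given where they arise.

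Of 25410 gene symbols, 20055 had enough counts to be tested, and 3101 were higher and 2905 lower at day 35 (edgeR quasi-likelihood test, adjusted p below 0.05). These are 15.5% and 14.5% of the genes tested, 29.9% together, the background for every list below. Most listed genes are well expressed, and among the 9283 tested genes with a mean of at least 5 CPM over the 6 libraries the shares were 24.3% higher and 26% lower, 50.2% together. A list whose shares lie near these does not stand apart from other expressed genes. The 3 day 35 libraries lay above all 3 day 3 libraries in 24.3% of the genes tested and below them in 18.7%. Among called genes the groups did not overlap in 3019 of the 3101 higher and 2735 of the 2905 lower. For a called gene, groups said not to overlap are therefore a description that adds little to the call. The median log2 change of all tested genes was 0.17. Levels are CPM (counts scaled to 1 library size after TMM normalization), which are not corrected for gene length, and changes are log2(day 35 over day 3) ± SE. At least 4-fold higher were 887 of the called genes and at least 4-fold lower 892. A higher count on either day may come from more cells of a kind or from more RNA per cell, and the 2 cannot be told apart in bulk RNA.

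The widest rises with at least 5 CPM were in genes that were nearly silent at day 3. *Bmp3*, a bone-derived member of the BMP family, had 129, 159 and 132 CPM at day 35, against 0.0976, 0.0451 and 0.0917 CPM at day 3 (log2 change 10.76 ± 0.33, adjusted p = 2.00e-11). *Kcnk1*, a potassium leak channel, had 55.3, 62.7 and 64.9 CPM at day 35, against 0.0976, 0 and 0 CPM at day 3, and its log2 change of 10.79 ± 0.63 was 14.15 without day 3 replicate 1, the only day 3 library with a count. *Ptprz1*, a receptor phosphatase, had 94.5, 85.5 and 66.2 CPM at day 35, against 0.342, 0 and 0 CPM at day 3, and its log2 change of 9.51 ± 0.65 was 14.58 without day 3 replicate 1 and 8.92 without day 3 replicate 2. Where the library left out held every day 3 count, the value is a fit against 0 counts and depends on the prior count, here and below. For these 3 genes every day 35 library lay far above every day 3 library. *Creb3l3*, a membrane-bound transcription factor, had 195, 209 and 172 counts at day 35 and 1, 0 and 0 at day 3, a CPM ratio of 859.7 (interval 154 to 34016). *Rprl1*, an RNA component of ribonuclease P, also ranks among the largest rises, but it had 1, 3 and 3925 counts at day 35 and 0, 0 and 0 at day 3, so that day 35 replicate 3 holds nearly all of its counts. At day 35 it was at least 1955-fold higher in CPM when day 3 is set to 3 counts over the group, and its call was lost without that library (adjusted p = 0.239).

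Several of the deepest falls are given here. *Ptgs2*, the inducible cyclooxygenase, had 38, 20.1 and 22 CPM at day 35, against 1568, 1675 and 1897 CPM at day 3 (log2 change -6.003 ± 0.25, adjusted p = 4.12e-10). *Ereg*, the EGF-family ligand epiregulin, had 4.06, 1.77 and 1.92 CPM at day 35, against 175, 139 and 172 CPM at day 3 (log2 change -5.95 ± 0.37, adjusted p = 1.38e-08). *Zbp1*, a sensor of nucleic acids, is on 2 rows of the files and had 0.0877, 0.253 and 0.245 CPM at day 35, against 11.3, 23.1 and 10.9 CPM at day 3 (log2 change -6.30 ± 0.83, adjusted p = 3.27e-05). No library of day 35 came within 10-fold of any library of day 3 for these 3 genes. *Rnu1b1* and *Rnu1b2*, copies of the U1 small nuclear RNA, were listed with nearly the same counts, 18.2, 33.9 and 39.6 CPM at day 35, against 4616, 1748 and 1846 CPM at day 3 for *Rnu1b1*, so reads may be shared between them. Their log2 changes of -6.49 and -6.48 were -5.86 and -5.86 without day 3 replicate 1, which held the most.

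Among the protein-coding genes with most counts, the 10 highest at day 35 were mostly matrix genes. *Col1a2*, the alpha 2 chain of type I collagen, averaged 28634 ± 6755 CPM at day 35 and 5316 ± 215 CPM at day 3 (SD, n = 3 each, here and below). *Sparc*, a collagen- and calcium-binding glycoprotein, averaged 11088 ± 567 CPM at day 35 and 2694 ± 784 CPM at day 3. *Postn*, periostin, averaged 6286 ± 319 CPM at day 35 and 2742 ± 84.9 CPM at day 3. Each of the 3 was higher in all day 35 libraries than in any day 3 library. The 10 highest at day 3 also held cytoskeletal and adhesion genes. *Actb* averaged 2321 ± 332 CPM at day 35 and 4773 ± 278 CPM at day 3, and *Thbs1*, the adhesive glycoprotein thrombospondin 1, averaged 4463 ± 439.6 CPM at day 35 and 18165 ± 1990.1 CPM at day 3. *Fat1*, a giant cadherin, averaged 1606 ± 379 CPM at day 35 and 3836 ± 965 CPM at day 3. All 3 were lower at day 35 without overlap, with log2 changes of -1.04 ± 0.15, -2.03 ± 0.17 and -1.26 ± 0.24.

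The phosphoproteins and Gla proteins of bone matrix were the most raised list. All 11 listed genes were tested, 9 were higher and none was lower, and the median log2 change was 5.01. The 2 not called were the tooth enamel and dentin genes *Enam* and *Dspp*, with under 1 CPM in every library, and the fitted change of *Dspp* (0.35) reversed to -2.30, -0.19 and -0.23 when day 35 replicate 2, day 3 replicate 1 or day 3 replicate 2 was left out. The promoters of *Bglap*, which encodes osteocalcin, and of *Spp1*, which encodes osteopontin, are shown because both carry the RUNX core motif TGTGGT, here on the reverse strand as ACCACA, marked in capitals. They run 5′ to 3′ from 250 bases before to 50 after the annotated start, from RefSeq on build GRCm38.p6 (*Bglap* chr3:88384417-88384716, minus strand; *Spp1* chr5:104434861-104435160, plus strand).
Bglap: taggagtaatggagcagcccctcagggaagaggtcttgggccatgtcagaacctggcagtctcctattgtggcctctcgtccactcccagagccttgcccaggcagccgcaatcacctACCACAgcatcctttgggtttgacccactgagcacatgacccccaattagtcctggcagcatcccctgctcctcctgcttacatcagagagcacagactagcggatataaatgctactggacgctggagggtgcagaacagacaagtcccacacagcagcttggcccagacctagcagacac
Spp1: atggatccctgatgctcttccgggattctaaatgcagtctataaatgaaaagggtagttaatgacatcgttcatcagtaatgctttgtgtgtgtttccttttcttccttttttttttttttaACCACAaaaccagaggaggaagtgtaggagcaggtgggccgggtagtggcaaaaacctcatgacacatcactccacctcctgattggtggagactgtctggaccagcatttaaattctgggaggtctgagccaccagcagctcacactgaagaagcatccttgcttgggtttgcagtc
The motif, searched on both strands, is in 4 of the 8 promoters found for the list (50%) and in 16.9% of 27025 promoters. A match is a description of the letters and no evidence of binding.

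*Ibsp*, bone sialoprotein, a nucleator of hydroxyapatite, had 11405, 13996 and 17416 CPM at day 35, against 45.9, 31.5 and 36.9 CPM at day 3 (log2 change 8.55 ± 0.25, adjusted p = 1.94e-11). *Bglap* is on 2 rows of the files and had 324, 763 and 736 CPM at day 35, against 8.61, 5.68 and 7.73 CPM at day 3, and its close copy *Bglap2* had 250.3, 519 and 524 CPM at day 35, against 12.7, 8.39 and 11.9 CPM at day 3. Their log2 changes were 6.37 ± 0.33 and 5.29 ± 0.32, and reads of these near-identical genes may be shared. Day 35 replicate 1 held less osteocalcin than replicates 2 and 3, while its *Spp1* was the highest of the group. *Spp1* had 324, 268 and 268 CPM at day 35, against 28.2, 45.3 and 30.2 CPM at day 3 (log2 change 3.05 ± 0.22, adjusted p = 6.18e-08). *Mgp*, matrix Gla protein, a soft-tissue mineralization inhibitor named after its values were seen, had 98, 89.7 and 93.1 CPM at day 35, against 44.2, 37.6 and 44.1 CPM at day 3 (log2 change 1.16 ± 0.20, adjusted p = 4.75e-04). In all of these the day 35 libraries lay above the day 3 libraries without overlap, by the widest margin in *Ibsp* and the narrowest in *Mgp*.

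**Figure D1:**
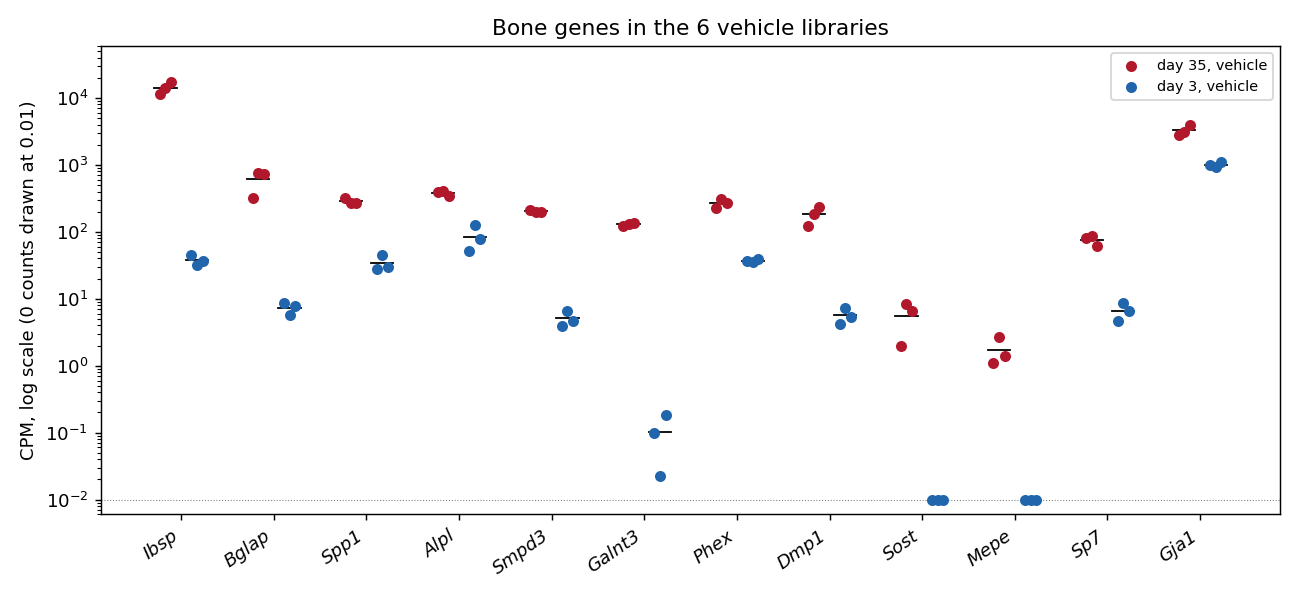
CPM of 12 bone genes in each vehicle library on a log axis, with day 35 in red at the left and day 3 in blue at the right of each gene; points are the 3 libraries, bars their means, and 0 counts are drawn at 0.01. The genes drawn were picked from list members called higher, and the day 35 points lie above the day 3 points in each. Members of the same lists that were lower or not called, such as *Cd44*, *Dstn*, *Pdpn* and *Runx2*, are not drawn. *Sost* and *Mepe* have 0 counts in all 3 day 3 libraries.

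Among 14 osteocyte genes tested 9 were higher and 2 lower, and 4 were lower without day 35 replicate 1. The median log2 change was 0.93. *Sost*, which encodes the Wnt inhibitor sclerostin, had 68, 228 and 162 counts at day 35 and 0, 0 and 0 at day 3, at least 228-fold higher in CPM when day 3 is set to 3 counts over the group. *Mepe*, a matrix phosphoglycoprotein of mature osteocytes, had 37, 75 and 34 counts at day 35 and 0, 0 and 0 at day 3, at least 72.6-fold higher. Both were detected in every day 35 library and in no day 3 library, though *Sost* varied about 4-fold among the day 35 libraries. Over all tested genes, 185 called higher had this pattern, and 8 called lower had the reverse, the background for such genes here and below. *Dmp1*, dentin matrix protein 1, had 121, 187 and 238 CPM at day 35, against 4.24, 7.22 and 5.44 CPM at day 3 (log2 change 5.01 ± 0.28, adjusted p = 5.58e-09). *Phex*, a phosphate-regulating endopeptidase, had 224, 308 and 266 CPM at day 35, against 36.7, 35.8 and 38.7 CPM at day 3 (log2 change 2.84 ± 0.16, adjusted p = 5.80e-09). *Dkk1*, another secreted Wnt inhibitor, had 3.13, 7.51 and 3.35 CPM at day 35, against 0.22, 0 and 0 CPM at day 3, with its only day 3 counts in replicate 1. Its log2 change was 5.96 ± 1.20 and was 10.45 without that library.

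Other members of the osteocyte list did not follow. *Dstn*, the actin-severing protein destrin, was lower at 696, 596 and 646 CPM at day 35, against 1139, 1389.6 and 1384 CPM at day 3 (log2 change -1.01 ± 0.14, adjusted p = 3.77e-05). *Cd44*, the hyaluronan receptor, is on 6 rows and had 0.585, 0.217 and 0.45 CPM at day 35, against 6.07, 3.23 and 8.33 CPM at day 3 (log2 change -3.80 ± 0.91, adjusted p = 0.00481). *Pdpn*, podoplanin, a marker of early osteocytes that extends dendrites, had 79.1, 49.7 and 50.6 CPM at day 35, against 65.7, 89.8 and 71.4 CPM at day 3, and the groups overlapped (adjusted p = 0.242), though without day 35 replicate 1 the log2 change of -0.34 became -0.59 with adjusted p = 0.0397. *Tnfsf11*, the osteoclast cytokine RANKL, had 12, 6.75 and 5.76 CPM at day 35, against 10.6, 8.01 and 11.2 CPM at day 3 with overlap (adjusted p = 0.421), and without day 35 replicate 1 its log2 change of -0.27 became -0.67 (adjusted p = 0.0216). *Tnfrsf11b*, its decoy receptor osteoprotegerin, had 92.1, 55.1 and 54.1 CPM at day 35, against 21.4, 52.2 and 31 CPM at day 3 without overlap, but its call (log2 change 0.95 ± 0.29) did not hold when 1 of 3 libraries was left out. It was 0.65 (adjusted p = 0.118) with day 35 replicate 1 left out, 0.71 (0.0636) with day 3 replicate 1 left out and 0.89 (0.0738) with day 3 replicate 3 left out. *Fgf23*, the phosphate-lowering hormone of osteocytes, was at the detection limit with 0, 1 and 0 counts at day 35 and 0, 0 and 3 at day 3, a CPM ratio of 0.498 (interval 0.00948 to 6.2) of day 35 over day 3, and the fitted change of -0.80 was 2.18 without day 3 replicate 3.

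Enzymes and transporters that set phosphate and pyrophosphate at the mineral front were higher in 11 and lower in 2 of 22 tested (4 lower without day 35 replicate 1), with a median log2 change of 1.03. *Galnt3*, the glycosyltransferase that protects FGF23 from cleavage, had 124, 131 and 136 CPM at day 35, against 0.0976, 0.0226 and 0.183 CPM at day 3, and its log2 change of 10.29 ± 0.34 was 11.05 without day 3 replicate 3. *Smpd3*, a neutral sphingomyelinase needed for bone mineralization, had 211, 199.7 and 196 CPM at day 35, against 3.88, 6.63 and 4.72 CPM at day 3 (log2 change 5.31 ± 0.20, adjusted p = 1.27e-10). *Alpl*, tissue-nonspecific alkaline phosphatase, had 389.8, 404 and 344 CPM at day 35, against 51.6, 125.3 and 78.1 CPM at day 3 (log2 change 2.16 ± 0.26, adjusted p = 1.28e-05). *Nt5e*, the ectonucleotidase CD73, had 174, 195 and 201 CPM at day 35, against 30.4, 25.1 and 29.7 CPM at day 3 (log2 change 2.74 ± 0.16, adjusted p = 8.73e-09). The 3 day 35 libraries were close together and above day 3 in each of these genes, with *Alpl* already present at day 3. *Phospho1*, a phosphatase of matrix vesicles, was low at 6.84, 4.8 and 4.82 CPM at day 35, against 0.195, 0 and 0 CPM at day 3, and its log2 change of 6.36 ± 1.50 was 10.68 without day 3 replicate 1, its only day 3 library with counts. On the other side *Enpp3*, an ectonucleotide pyrophosphatase, averaged 0.406 ± 0.106 CPM at day 35 and 1.96 ± 1.27 CPM at day 3 and was lower (log2 change -2.24 ± 0.47, adjusted p = 0.00177). The other lower gene was the phosphate transporter gene *Slc20a1*, named after its values were seen, at a log2 change of -1.70. The related transporter gene *Slc20a2* and the phosphate exporter gene *Xpr1* were not called, at log2 changes of -0.25 ± 0.20 and 0.34 ± 0.24.

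Transcription factors of the osteoblast lineage were higher in 9 and lower in 8 of 30, near the shares of expressed genes (24.3% and 26%). The lower count was 5 without day 35 replicate 2 or replicate 3. *Sp7*, osterix, had 79.7, 87.3 and 62.3 CPM at day 35, against 4.68, 8.73 and 6.56 CPM at day 3 (log2 change 3.52 ± 0.23, adjusted p = 2.81e-08). *Tcf7*, a Wnt effector, had 34.6, 18.3 and 18.6 CPM at day 35, against 1.41, 2.89 and 4.22 CPM at day 3 (log2 change 3.07 ± 0.43, adjusted p = 5.32e-05). *Dlx3*, a homeobox factor of bone, had 5.09, 3.21 and 2.08 CPM at day 35, against 0.171, 0.519 and 0.527 CPM at day 3 (log2 change 3.08 ± 0.57, adjusted p = 6.52e-04). *Mef2c*, which acts on the *Sost* enhancer, is on 2 rows and averaged 3.78 ± 1.01 CPM at day 35 and 0.568 ± 0.249 CPM at day 3 (log2 change 2.73 ± 0.66, adjusted p = 0.0051). These were higher in all 3 day 35 libraries than in any day 3 library. *Msx2* averaged 0.397 ± 0.199 CPM at day 35 and 3.26 ± 0.342 CPM at day 3 and *Sox11*, a factor of progenitor cells, averaged 2.44 ± 0.963 CPM at day 35 and 14.4 ± 2.4 CPM at day 3, both lower without overlap at log2 changes of -3.03 ± 0.56 and -2.57 ± 0.62. *Runx2* is on 3 rows and had 7.43, 5.41 and 4.99 CPM at day 35, against 3.93, 3.11 and 5.53 CPM at day 3, with a log2 change of 0.51 ± 0.32 that was not called (adjusted p = 0.248). *Cebpb* was at 66.8 ± 7.04 CPM at day 35 and 77.3 ± 5.89 CPM at day 3.

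Collagen genes changed in both directions, 14 of 28 higher and 7 lower, with a median log2 change of 1.19. The chains of type I collagen were higher: *Col1a2* had 20895, 31659.9 and 33347 CPM at day 35, against 5251, 5556 and 5141 CPM at day 3 (log2 change 2.43 ± 0.20, adjusted p = 2.16e-07) and *Col1a1* had 7976, 7258 and 7341 CPM at day 35, against 1138, 3392 and 1668 CPM at day 3 (log2 change 1.86 ± 0.34, adjusted p = 6.78e-04). Day 3 replicate 2 had the most *Col1a1* of the day 3 libraries and did not stand out for *Col1a2*. *Col15a1*, a basement-membrane-zone collagen, had 37.6, 32.6 and 36.4 CPM at day 35, against 0.878, 0.947 and 1.24 CPM at day 3 (log2 change 5.12 ± 0.35, adjusted p = 4.06e-08). *Col11a2*, a chain of the minor fibrillar type XI, had 238, 332 and 389 CPM at day 35, against 1.54, 0.0226 and 0.55 CPM at day 3, and its log2 change of 8.84 ± 0.63 was 10.13 without day 3 replicate 1. *Col13a1*, a transmembrane collagen, had 50.2, 70.3 and 78.3 CPM at day 35, against 0, 0 and 0.0917 CPM at day 3, with its only counts at day 3 in replicate 3, and its log2 change of 10.91 ± 0.50 was 14.26 without it. *Col12a1*, a collagen that decorates fibrils, was lower at 4125 ± 702 CPM at day 35 and 7641 ± 856 CPM at day 3 (log2 change -0.89 ± 0.17, adjusted p = 8.75e-04). *Col6a2* was not called (log2 change -0.15 ± 0.21, adjusted p = 0.633).

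Enzymes that modify collagen were raised in 10 of 24 tested and lower in 2. The lower count was between 1 and 5 when single libraries were left out (4 with day 35 replicate 1 left out, 5 with day 3 replicate 1 left out and 1 with any other library left out). The median log2 change was 0.30. *P4ha1*, the catalytic chain of prolyl 4-hydroxylase, had 1148, 1029 and 1212 CPM at day 35, against 208, 144 and 167 CPM at day 3 (log2 change 2.71 ± 0.16, adjusted p = 1.05e-08). *Pcolce2*, an enhancer of procollagen C-proteinase, had 14.3, 15.3 and 16.7 CPM at day 35, against 1.22, 0.992 and 2.52 CPM at day 3 (log2 change 3.29 ± 0.37, adjusted p = 5.84e-06). *Plod1*, a lysyl hydroxylase, had 59.6, 53.8 and 48.6 CPM at day 35, against 20.4, 23 and 19.2 CPM at day 3 (log2 change 1.37 ± 0.14, adjusted p = 2.31e-06). Each was higher in every day 35 library than in any day 3 library, by 2- to 10-fold in the fitted change. The collagen chaperone gene *Serpinh1* (3 rows) was also higher (log2 change 1.32 ± 0.34, adjusted p = 0.00839), and the endoplasmic reticulum isomerase gene *Ppib* was not called (log2 change 0.31 ± 0.18, adjusted p = 0.201).

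Proteoglycans, large and small, and other proteins of the matrix were raised in 16 of 33 and lower in 4, with a median log2 change of 0.73. *Acan*, the large aggregating proteoglycan of cartilage, had 69.3, 43.6 and 41.9 CPM at day 35, against 0.756, 0.789 and 0.482 CPM at day 3 (log2 change 6.25 ± 0.38, adjusted p = 1.05e-08). *Comp*, a thrombospondin-family protein of cartilage and tendon, had 163, 305 and 330.0 CPM at day 35, against 14.5, 18.6 and 15 CPM at day 3 (log2 change 4.05 ± 0.28, adjusted p = 3.85e-08). *Lum*, a collagen-binding keratan sulphate proteoglycan, had 2645, 1539.7 and 1449 CPM at day 35, against 333, 429 and 439.7 CPM at day 3 (log2 change 2.23 ± 0.24, adjusted p = 4.12e-06). *Comp* was lower in day 35 replicate 1 than in replicates 2 and 3 and *Lum* higher, yet both groups stayed apart. *Vcan*, the large proteoglycan of loose and embryonic matrix, is on 5 rows and was lower, with 3.45, 1.55 and 1.68 CPM at day 35, against 46.5, 43 and 57.7 CPM at day 3 (log2 change -4.44 ± 0.44, adjusted p = 1.70e-06). Fibronectin, *Fn1*, was not called, at 8100.1, 4314 and 4198 CPM at day 35, against 2228, 5974 and 4109.7 CPM at day 3. Its highest and lowest libraries are day 35 replicate 1 and day 3 replicate 1.

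Among matrix proteases and their inhibitors 13 of 34 were higher and 8 lower. *Prss35*, a secreted serine protease of little-known function, had 728, 681 and 709.7 CPM at day 35, against 11.9, 14.6 and 13.2 CPM at day 3 (log2 change 5.74 ± 0.21, adjusted p = 1.25e-10). *Ctsk*, the collagen-degrading cathepsin K, averaged 656 ± 82.1 CPM at day 35 and 164 ± 24.5 CPM at day 3 (log2 change 2.00 ± 0.17, adjusted p = 3.21e-07). Among the genes that fell, *Plau*, urokinase, had 44.6, 33.9 and 42.5 CPM at day 35, against 276, 308 and 281 CPM at day 3 (log2 change -2.84 ± 0.18, adjusted p = 1.61e-08). *Adamts1*, a metalloproteinase that cleaves proteoglycans, had 434, 363 and 409 CPM at day 35, against 4773, 3809.7 and 4837 CPM at day 3 (log2 change -3.48 ± 0.17, adjusted p = 2.15e-09). For all 4 genes the 2 days were separated by more than the spread within either day.

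**Figure D2:**
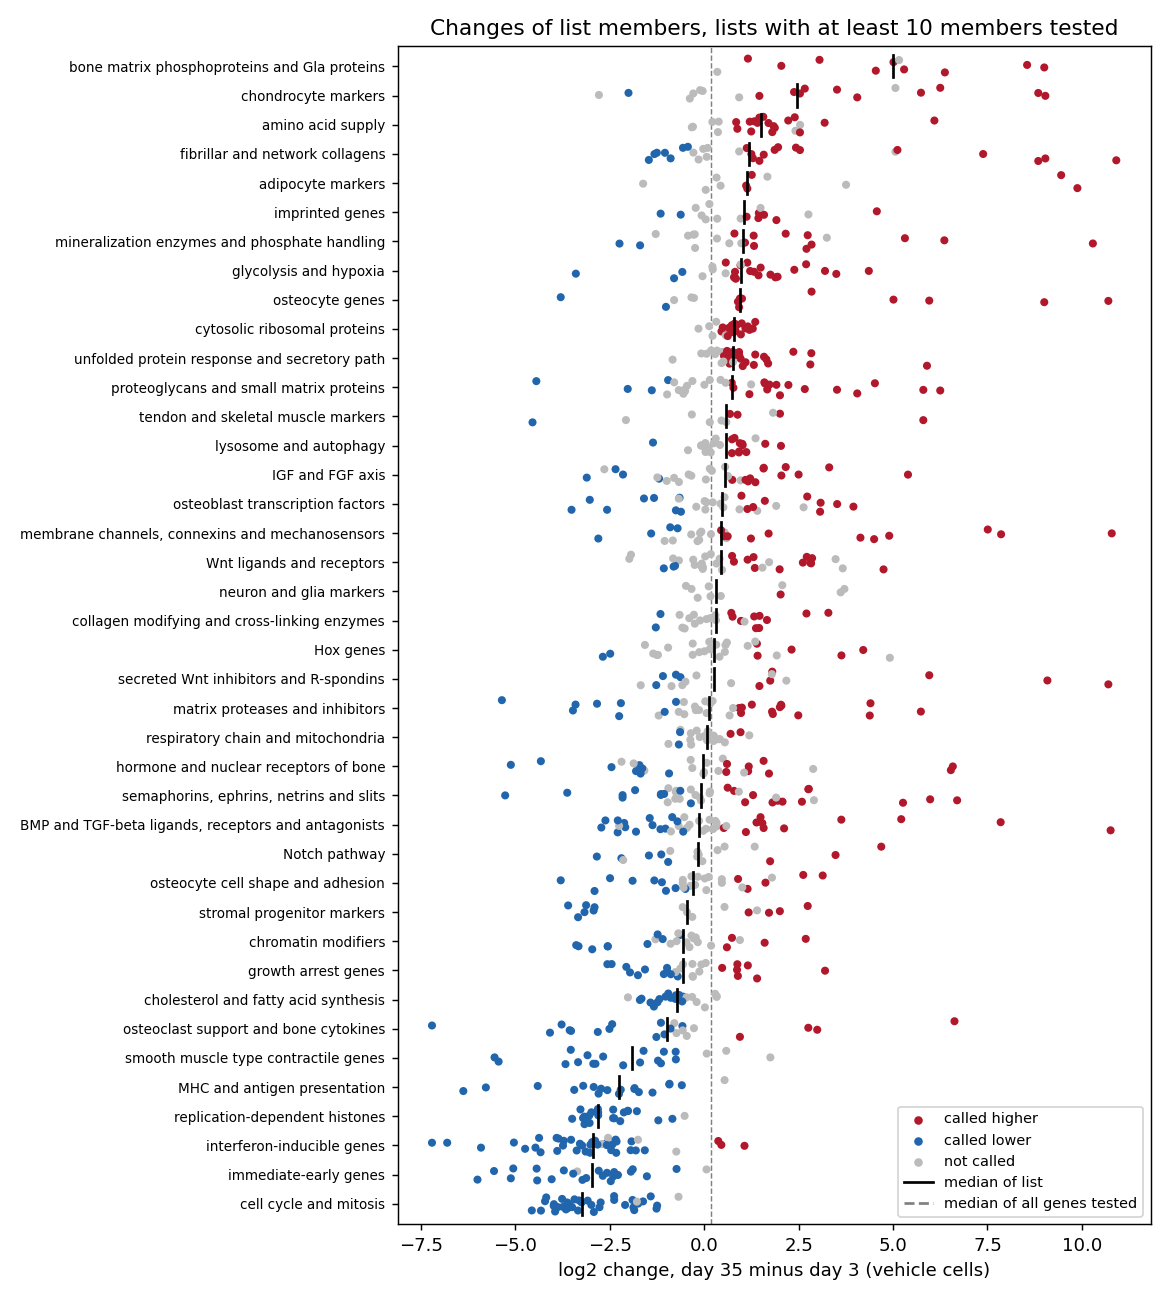
Fitted log2 change (day 35 minus day 3) of each tested member of the lists with at least 10 members tested; red points were called higher, blue lower and grey not called, black bars are list medians and the dashed line is the median of all genes tested, 0.17. Points of genes with 0 counts on 1 day depend on the prior count of the fit. By list median, bone matrix genes lie farthest to the right and cell cycle genes farthest to the left.

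Secreted Wnt inhibitors and R-spondins included 6 higher and 4 lower genes of 18 tested. Besides the inhibitors described with the osteocyte genes, *Dkk2* had 339.9, 276 and 325 CPM at day 35, against 131, 88.1 and 123 CPM at day 3 (log2 change 1.46 ± 0.20, adjusted p = 4.25e-05). *Sfrp4* averaged 22.2 ± 5.43 CPM at day 35 and 6.36 ± 2.88 CPM at day 3 (log2 change 1.80 ± 0.33, adjusted p = 7.12e-04). *Frzb* averaged 19.2 ± 7.52 CPM at day 35 and 5.73 ± 2.27 CPM at day 3 (log2 change 1.75 ± 0.34, adjusted p = 9.74e-04). In contrast *Sfrp1*, which also sequesters Wnt ligands, was lower at 350.1, 234 and 216 CPM at day 35, against 515, 599.6 and 593 CPM at day 3 (log2 change -1.09 ± 0.18, adjusted p = 2.96e-04), and so was *Rspo2*, an R-spondin that amplifies Wnt signals, at 10.9 ± 2.88 CPM at day 35 and 26.3 ± 3.14 CPM at day 3 (log2 change -1.27 ± 0.23, adjusted p = 6.80e-04). *Notum*, a Wnt-inactivating hydrolase, averaged 3.03 ± 0.277 CPM at day 35 and 3.49 ± 0.189 CPM at day 3 and was not called. Wnt ligands and receptors were higher in 12 and lower in 3 of 34, the lower count being 1 without day 35 replicate 2, day 35 replicate 3 or day 3 replicate 3. *Lrp4*, the co-receptor that presents sclerostin, is on 2 rows and had 318, 347 and 344 CPM at day 35, against 82.8, 89.9 and 80.1 CPM at day 3 (log2 change 2.00 ± 0.14, adjusted p = 4.18e-08). *Wnt5b* had 44.9, 49.7 and 59.4 CPM at day 35, against 8.46, 10.7 and 6.03 CPM at day 3 (log2 change 2.61 ± 0.23, adjusted p = 5.47e-07). *Wnt9a* averaged 11.3 ± 1.65 CPM at day 35 and 1.56 ± 0.26 CPM at day 3, and *Wnt10b* averaged 28.9 ± 3.71 CPM at day 35 and 11.4 ± 3.3 CPM at day 3. *Nkd2*, an intracellular Wnt antagonist, averaged 47.8 ± 9.63 CPM at day 35 and 6.81 ± 0.854 CPM at day 3. These ligand and antagonist genes were higher without overlap, at log2 changes of 2.86 ± 0.31 for *Wnt9a*, 1.34 ± 0.28 for *Wnt10b* and 2.81 ± 0.20 for *Nkd2*. The co-receptor *Lrp6* was not called (log2 change -0.25 ± 0.15, adjusted p = 0.225).

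BMP and TGF-beta genes were higher in 11 and lower in 14 of 41 tested. Beside *Bmp3* (10.76 ± 0.33), *Inhba*, the activin A subunit, was lower at 46.5, 41.6 and 47.8 CPM at day 35, against 257, 364 and 277 CPM at day 3 (log2 change -2.72 ± 0.20, adjusted p = 1.04e-07). *Id1*, a direct target of BMP signalling, was lower at 7.37, 7.4 and 6.7 CPM at day 35, against 36.7, 41.7 and 26.5 CPM at day 3 (log2 change -2.29 ± 0.22, adjusted p = 1.52e-06), as was the receptor gene *Bmpr1b* at 0.772 ± 0.142 CPM at day 35 and 4.76 ± 1.21 CPM at day 3 (log2 change -2.62 ± 0.52, adjusted p = 0.00122). *Bambi*, a decoy receptor of the family named after its values were seen, was higher at 102 ± 10.3 CPM at day 35 and 23.5 ± 3.28 CPM at day 3 (log2 change 2.12 ± 0.15, adjusted p = 4.35e-08). None of these groups overlapped. *Tgfb3* and the receptor gene *Bmpr2* were not called (-0.14 ± 0.15 and -0.39 ± 0.35).

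In the IGF and FGF axis 12 of 29 were higher and 4 lower. *Fgf1* had 11.4, 7.69 and 6.13 CPM at day 35, against 1.37, 0.248 and 0.94 CPM at day 3 (log2 change 3.31 ± 0.43, adjusted p = 2.85e-05) and *Htra1*, a serine protease that cleaves matrix and growth factors, averaged 67.8 ± 4.08 CPM at day 35 and 16.5 ± 3.12 CPM at day 3 (log2 change 2.04 ± 0.16, adjusted p = 2.02e-07). Feedback inhibitors of FGF and ERK signalling split: *Spry1* averaged 45.1 ± 1.38 CPM at day 35 and 10.1 ± 1.74 CPM at day 3 and was higher, whereas *Spry2* averaged 5.23 ± 0.667 CPM at day 35 and 45.2 ± 8.86 CPM at day 3 and *Dusp6* averaged 65.1 ± 13.4 CPM at day 35 and 332 ± 5.14 CPM at day 3, both lower. Their log2 changes were 2.16 ± 0.16 for *Spry1*, -3.11 ± 0.23 for *Spry2* and -2.35 ± 0.17 for *Dusp6*, and no groups overlapped. *Igf1r* and *Igf2r* were not called (-0.34 ± 0.33 and 0.04 ± 0.14).

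Hormone receptor genes were higher in 8 and lower in 8 of 29, near the shares of expressed genes (24.3% and 26%). *Pth1r*, the parathyroid hormone receptor, is on 3 rows and had 13.5, 23.2 and 26.7 CPM at day 35, against 0.195, 0.0677 and 0.413 CPM at day 3 (log2 change 6.53 ± 0.51, adjusted p = 1.42e-07), with a log2 change of 7.32 without day 3 replicate 3. *Vdr*, the vitamin D receptor, had 10.5, 8.12 and 6.05 CPM at day 35, against 1.41, 4.28 and 2.59 CPM at day 3 (log2 change 1.57 ± 0.36, adjusted p = 0.00371). *Lepr*, the leptin receptor, is on 3 rows and averaged 30.2 ± 13.9 CPM at day 35 and 9.22 ± 3.33 CPM at day 3 (log2 change 1.71 ± 0.34, adjusted p = 0.00128). Day 35 replicate 1 had the highest *Vdr* and *Lepr* and the lowest *Pth1r* of its group, and all 3 genes were higher without overlap.

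Channels and junction genes were higher in 11 and lower in 4 of 25. The higher count lay at 6 or 7 without day 35 replicate 1, 2 or 3 or day 3 replicate 2 or 3, and the lower count was 2 without day 35 replicate 2. *Gja1*, connexin 43, the gap-junction protein of the osteocyte network, had 2769.5, 3140.2 and 3962 CPM at day 35, against 996, 945 and 1088 CPM at day 3 (log2 change 1.70 ± 0.19, adjusted p = 5.46e-06). *Panx3*, a pannexin of bone and cartilage, had 158, 105 and 81.9 CPM at day 35, against 2.49, 4.69 and 4.36 CPM at day 3 (log2 change 4.90 ± 0.32, adjusted p = 2.44e-08). *Ano1*, a calcium-activated chloride channel, had 94.4, 96.1 and 94.8 CPM at day 35, against 3.2, 5.12 and 4.29 CPM at day 3 (log2 change 4.50 ± 0.28, adjusted p = 1.53e-08). *Kcnma1*, the large-conductance potassium channel, had 40, 33.6 and 36.9 CPM at day 35, against 0.171, 0.203 and 0.0917 CPM at day 3 (log2 change 7.86 ± 0.33, adjusted p = 4.56e-10). All were higher in each day 35 library than in any at day 3. *Slc8a3*, a sodium-calcium exchanger on 2 rows, had 12, 15 and 23 counts at day 35 and 0, 0 and 0 at day 3, at least 24.9-fold higher, but its call was lost when any 1 of the 6 libraries was left out (adjusted p = 0.0576 to 0.102).

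Cytokines and factors that act on osteoclasts leaned the other way, 13 of 22 lower and 4 higher, with a median log2 change of -0.97. *Ccl2*, the monocyte chemoattractant, had 1.84, 0.577 and 1.19 CPM at day 35, against 21, 20.2 and 20.6 CPM at day 3 (log2 change -4.08 ± 0.42, adjusted p = 2.84e-06). *Cxcl1* had 4.65, 5.27 and 4.09 CPM at day 35, against 76.5, 51.8 and 63.9 CPM at day 3 (log2 change -3.78 ± 0.30, adjusted p = 2.13e-07). *Il6* had 0.117, 0.397 and 0.45 CPM at day 35, against 4.2, 3.34 and 3.81 CPM at day 3 (log2 change -3.56 ± 0.69, adjusted p = 9.99e-04). *Il1rl1*, the receptor of interleukin 33, is on 2 rows and had 19.7, 9.67 and 11.4 CPM at day 35, against 113, 209.8 and 148 CPM at day 3 (log2 change -3.53 ± 0.28, adjusted p = 1.97e-07). In these 4 every day 35 library was more than 4-fold below the lowest day 3 library. *Ostn*, osteocrin, a secreted peptide of osteoblasts, was higher at 13.9, 29.2 and 24.7 CPM at day 35, against 0.317, 0.361 and 0 CPM at day 3 (log2 change 6.63 ± 0.71, adjusted p = 4.09e-06). *Angpt4*, an angiopoietin, was higher at 25, 23.7 and 24.2 CPM at day 35, against 2.78, 1.96 and 4.4 CPM at day 3 (log2 change 2.99 ± 0.25, adjusted p = 3.17e-07). *Ccl5* was counted only at day 3, with 0, 0 and 0 counts at day 35 and 15, 13 and 36 at day 3, at least 14.3-fold lower. Its call (adjusted p = 0.0196) was lost without any 1 of the day 35 libraries (adjusted p = 0.0522, 0.0599 and 0.0602 without replicates 1, 2 and 3), and its fitted change of -7.21 was -6.61 without day 3 replicate 3.

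Genes of the unfolded protein response and the secretory path were higher in 21 of 31 tested, with none lower (1 lower without day 3 replicate 1), at a median log2 change of 0.76. The 10 not called included *Hsp90b1*, *Pdia6* and *Pdia3*, at log2 changes of 0.34, 0.47 and -0.08. *Herpud1*, which takes part in degradation at the endoplasmic reticulum, had 261, 307 and 314 CPM at day 35, against 42.5, 41 and 42.3 CPM at day 3 (log2 change 2.81 ± 0.15, adjusted p = 4.25e-09). *Hspa5*, the chaperone BiP, is on 2 rows and had 459.7, 461 and 522 CPM at day 35, against 139, 140.1 and 167 CPM at day 3 (log2 change 1.69 ± 0.16, adjusted p = 1.49e-06). *Ddit3*, the transcription factor CHOP, had 46.5, 68.7 and 84.8 CPM at day 35, against 8.95, 9.63 and 9.4 CPM at day 3 (log2 change 2.84 ± 0.21, adjusted p = 9.81e-08). *Trib3*, a pseudokinase downstream of it, had 89, 166 and 190.2 CPM at day 35, against 1.49, 3.72 and 2.22 CPM at day 3 (log2 change 5.90 ± 0.37, adjusted p = 1.55e-08). Replicates 2 and 3 of day 35 held more *Ddit3* and *Trib3* than replicate 1, and every day 35 library was above day 3. *Xbp1* averaged 252 ± 4.28 CPM at day 35 and 80.6 ± 3.65 CPM at day 3, and *Eif2ak3*, the kinase PERK, averaged 135 ± 10.1 CPM at day 35 and 45.1 ± 3.94 CPM at day 3. *Chac1*, a glutathione-degrading enzyme, averaged 29.4 ± 5.63 CPM at day 35 and 5.72 ± 1.21 CPM at day 3. Their log2 changes of 1.65 ± 0.15, 1.58 ± 0.15 and 2.36 ± 0.40 were smaller than that of *Trib3*.

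Genes of amino acid supply were higher in 17 of 24 and lower in none, with a median log2 change of 1.51. The list holds amino acid synthesis and transport genes, stress genes such as *Nupr1* and tRNA synthetase genes, many of them targets of ATF4. *Asns*, asparagine synthetase, had 208, 250.1 and 243 CPM at day 35, against 41.6, 49.6 and 41.9 CPM at day 3 (log2 change 2.40 ± 0.19, adjusted p = 1.45e-07). *Gpt2*, mitochondrial alanine transaminase, had 154, 186 and 178 CPM at day 35, against 20.9, 16.8 and 19.1 CPM at day 3 (log2 change 3.19 ± 0.15, adjusted p = 1.39e-09). *Pycr1*, the last step of proline synthesis, had 28.6, 26.7 and 24.7 CPM at day 35, against 4.22, 6.81 and 6.1 CPM at day 3 (log2 change 2.22 ± 0.21, adjusted p = 9.57e-07). The 3 libraries of a day stayed within 2-fold of each other and the days did not overlap. *Nupr1*, a stress-induced chromatin protein, had 68.9, 90.3 and 89.5 CPM at day 35, against 1.49, 0.0677 and 2.09 CPM at day 3, and its log2 change of 6.09 ± 0.64 was 6.76 without day 3 replicate 3. *Psat1*, of serine synthesis, was not called (log2 change 0.22 ± 0.16, adjusted p = 0.34). The *Nupr1* promoter (chr7:126625421-126625720, minus strand, GRCm38.p6, RefSeq) is shown because this gene had the largest fitted change of the list, with its C/EBP-ATF motif TGATGNAA in capitals.
Nupr1: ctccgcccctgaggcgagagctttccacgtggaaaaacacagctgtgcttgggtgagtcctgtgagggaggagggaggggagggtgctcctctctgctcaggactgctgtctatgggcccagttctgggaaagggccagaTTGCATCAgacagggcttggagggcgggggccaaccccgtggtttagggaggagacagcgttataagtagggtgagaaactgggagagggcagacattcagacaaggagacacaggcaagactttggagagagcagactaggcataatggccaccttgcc
The motif, on either strand, is in 7 of the 22 promoters found for the list (31.8%) and in 4.06% of all promoters.

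Cytosolic ribosomal protein genes were higher in 21 of 26 tested and lower in none, with a median log2 change of 0.78. *Rpl3* had 787, 980.4 and 1173 CPM at day 35, against 475, 320.3 and 358 CPM at day 3 (log2 change 1.35 ± 0.18, adjusted p = 2.76e-05) and *Rplp1* had 480.2, 642 and 739.8 CPM at day 35, against 311, 218 and 235 CPM at day 3 (log2 change 1.29 ± 0.19, adjusted p = 1.07e-04). *Rpl26* had 446, 590.4 and 728 CPM at day 35, against 439, 207 and 254 CPM at day 3 (log2 change 0.97 ± 0.24, adjusted p = 0.00686), so day 35 replicate 1 was close to day 3 replicate 1. *Rps19* was not called, with the groups overlapping at 130.4, 162 and 211 CPM at day 35, against 214, 188 and 157 CPM at day 3. Many ribosomal protein genes have processed copies elsewhere in the genome, so their counts are uncertain where reads fit several places. The list's median by library, relative to each gene's mean over the 6 libraries, was 0.106, 0.417 and 0.652 at day 35, against -0.0691, -0.607 and -0.52 at day 3 (log2 scale). Across 11386 genes with a mean of at least 1 CPM, the deviation of each library from the mean of the other 2 of its day had a Spearman correlation with transcript length of 0.382, -0.242 and -0.324 at day 35 and -0.29, 0.154 and 0.219 at day 3. Such deviations cancel out for each gene within a day, so signs within a day tend to differ, and replicate 1 was the library of opposite sign on both days. The change itself, day 35 minus day 3, had a correlation of -0.157 with transcript length and 0.103 with GC content over these genes. The part of length, GC content or replicate 1 in the ribosomal result was not tested. *Eef1a1*, a translation elongation factor, averaged 9321 ± 1674 CPM at day 35 and 5046 ± 1236 CPM at day 3 (log2 change 0.89 ± 0.19, adjusted p = 0.00237).

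**Figure D3:**
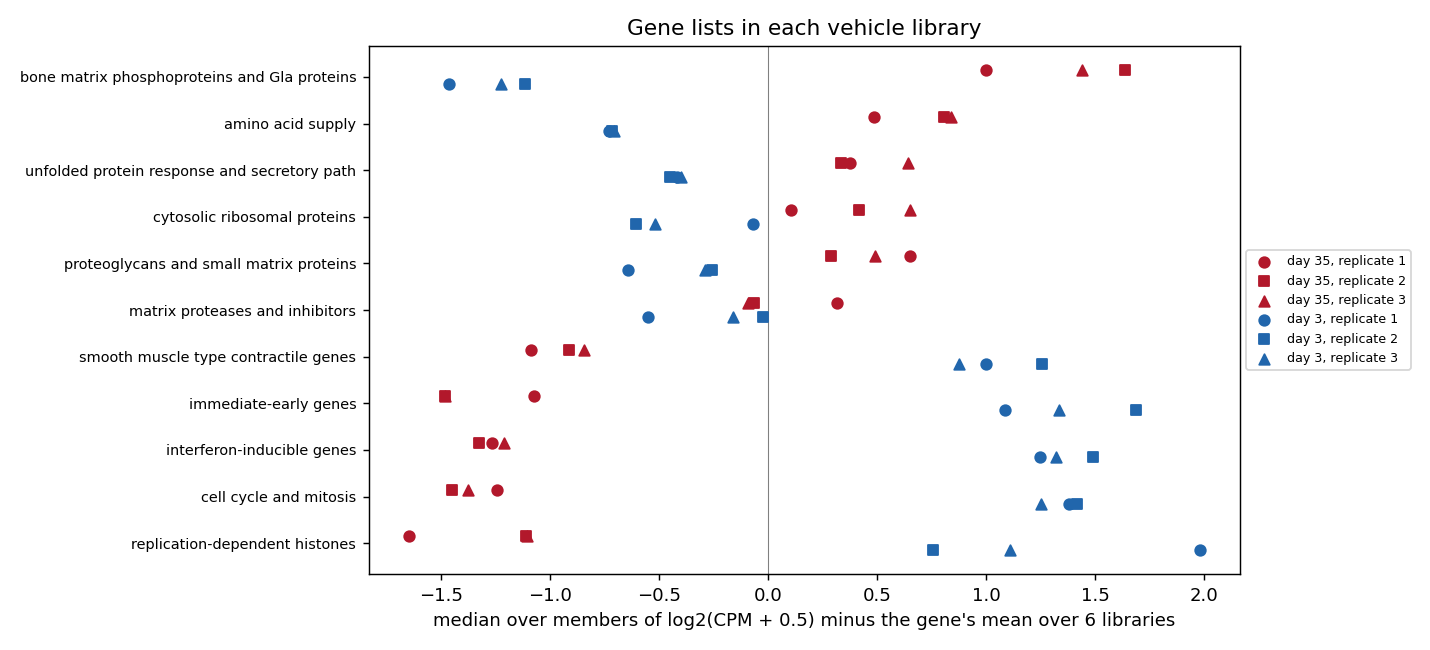
For 11 gene lists, the median over tested members of log2(CPM + 0.5) minus each gene's mean over the 6 vehicle libraries, with day 35 in red above day 3 in blue and a marker shape per replicate. Day 35 replicate 1 and day 3 replicate 1 lie at 0.106 and -0.0691 for ribosomal proteins, close to each other, while the days are far apart for bone matrix, cell cycle and interferon genes.

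Glycolytic and hypoxia-responsive genes were higher in 19 of 27 tested and lower in 3, with a median log2 change of 0.97. *Pdk1*, the kinase that shuts pyruvate out of mitochondria, had 381, 338 and 384 CPM at day 35, against 46, 33.7 and 40.5 CPM at day 3 (log2 change 3.20 ± 0.16, adjusted p = 1.94e-09). *Pfkl*, a phosphofructokinase, had 115, 132 and 140.1 CPM at day 35, against 29, 23.5 and 21.6 CPM at day 3 (log2 change 2.39 ± 0.15, adjusted p = 1.82e-08). *Egln3*, a prolyl hydroxylase induced by hypoxia, had 57.8, 35 and 34.9 CPM at day 35, against 1.93, 2.37 and 1.93 CPM at day 3 (log2 change 4.36 ± 0.29, adjusted p = 3.38e-08). *Bnip3*, a mitophagy receptor, averaged 89.2 ± 20.3 CPM at day 35 and 13.8 ± 1.94 CPM at day 3, and *Pgk1* averaged 689 ± 58.6 CPM at day 35 and 179 ± 18.8 CPM at day 3, both higher at log2 changes of 2.70 ± 0.18 and 1.94 ± 0.16. *Adm*, adrenomedullin, another gene induced by hypoxia, was lower at 6.14, 7.04 and 7.72 CPM at day 35, against 91.7, 57.6 and 70.9 CPM at day 3 (log2 change -3.40 ± 0.20, adjusted p = 1.04e-08), so the list did not move as 1 block. Genes of the respiratory chain were mostly uncalled, 2 of 26 higher and 2 lower, and the lower count was 1 without day 35 replicate 3. *Atp5a1*, of ATP synthase, and *Sdha*, of complex II, had log2 changes of 0.13 ± 0.16 and 0.12 ± 0.13.

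Lysosome and autophagy genes were higher in 11 of 24 and lower in 1. The lower one, *Tpp1*, a lysosomal peptidase named after its values were seen, was not called without day 35 replicate 2 (-1.24), day 35 replicate 3 (-1.13) or day 3 replicate 2 (-0.93), against a log2 change of -1.36 over all libraries. *Ctsl*, cathepsin L, had 388, 470.0 and 517 CPM at day 35, against 125.1, 103 and 108 CPM at day 3 (log2 change 2.03 ± 0.15, adjusted p = 1.19e-07). *Sqstm1*, the autophagy receptor p62, had 353, 341 and 371 CPM at day 35, against 174, 188 and 167 CPM at day 3 (log2 change 1.01 ± 0.13, adjusted p = 3.26e-05). Both days were tight for these genes. Cholesterol and fatty acid synthesis genes were lower in 15 of 24 and higher in none, at a median log2 change of -0.72. *Idi1*, of isoprenoid synthesis, had 118, 76.9 and 95.5 CPM at day 35, against 328, 248 and 343 CPM at day 3 (log2 change -1.66 ± 0.19, adjusted p = 8.85e-06). Its 3 day 35 libraries were below its 3 day 3 libraries. *Insig1*, which holds the sterol sensor in the endoplasmic reticulum, and the desaturase gene *Scd1* were not called (0.29 ± 0.23 and -0.20 ± 0.24).

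Cell cycle genes were lower almost without exception. Of 37 tested, 35 were lower and none was higher, at a median log2 change of -3.25. *Mki67*, the proliferation antigen, had 47.8, 29.7 and 26.8 CPM at day 35, against 545, 764 and 781 CPM at day 3 (log2 change -4.32 ± 0.26, adjusted p = 1.09e-08). *Ccnb2*, a mitotic cyclin, had 1.17, 1.12 and 0.899 CPM at day 35, against 23.2, 28.5 and 24.3 CPM at day 3 (log2 change -4.57 ± 0.39, adjusted p = 3.69e-07). *Cdc20*, an activator of the anaphase-promoting complex, had 3.6, 3.68 and 5.19 CPM at day 35, against 71.8, 62.6 and 61.7 CPM at day 3 (log2 change -3.98 ± 0.29, adjusted p = 7.12e-08). *Cenpe*, a kinetochore motor, had 14.1, 10.7 and 13.6 CPM at day 35, against 196, 195 and 217 CPM at day 3 (log2 change -3.98 ± 0.20, adjusted p = 2.09e-09). For each of the 4, every day 35 library was more than 10-fold below the lowest day 3 library. *Aurkb* averaged 1.64 ± 0.135 CPM at day 35 and 24 ± 0.754 CPM at day 3 and *Kif23* averaged 3.62 ± 0.519 CPM at day 35 and 56.1 ± 7.63 CPM at day 3, both lower. The *Ccnb2* promoter (chr9:70421505-70421804, minus strand, GRCm38.p6, RefSeq) is shown because mitotic genes of this kind are known to be controlled through CCAAT boxes and a CHR element, TTTGAA. Capitals mark CCAAT or its reverse complement ATTGG and TTTGAA or its reverse complement TTCAAA.
Ccnb2: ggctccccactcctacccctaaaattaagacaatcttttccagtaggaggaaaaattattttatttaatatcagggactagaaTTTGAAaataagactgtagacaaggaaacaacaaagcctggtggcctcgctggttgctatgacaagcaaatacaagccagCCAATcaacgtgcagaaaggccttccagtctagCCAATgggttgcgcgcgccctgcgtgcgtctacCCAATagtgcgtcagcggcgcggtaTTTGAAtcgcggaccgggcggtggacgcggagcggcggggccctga
On either strand the CHR letters are in 14 of 32 promoters found for the list (43.8%) and in 18.1% of all promoters, and CCAAT is in 24 of 32 (75%) and in 37.9% of all.

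Replication-dependent histone genes, which are transcribed in S phase, were lower in 22 of 23. *Hist1h2bb* had 22.6, 28.7 and 29.8 CPM at day 35, against 419, 206 and 291 CPM at day 3 (log2 change -3.50 ± 0.30, adjusted p = 3.43e-07). *Hist1h1a*, a linker histone, had 36.8, 43.3 and 52.2 CPM at day 35, against 609, 218 and 396 CPM at day 3 (log2 change -3.21 ± 0.37, adjusted p = 7.54e-06). *Hist1h3c* had 8.13, 11.3 and 8.25 CPM at day 35, against 132, 58.1 and 78.1 CPM at day 3 (log2 change -3.28 ± 0.35, adjusted p = 3.58e-06). Day 3 replicate 1 held the most and day 3 replicate 2 the least of each among the day 3 libraries, and all lay above day 35. Many histone genes share sequence, and *Hist1h2ab*, *Hist1h2ac* and *Hist1h2ae*, chosen after their values were seen, had nearly equal counts, so the members of this list are not independent. *Hist1h1c* was the exception, not called at 175, 249 and 261 CPM at day 35, against 425, 258 and 297 CPM at day 3 (log2 change -0.52, and -0.66 with adjusted p = 0.0347 without day 3 replicate 2). Of the 26 chromatin genes tested, 9 were lower and 4 higher. *Dnmt1*, the maintenance DNA methyltransferase, averaged 36.4 ± 3.48 CPM at day 35 and 214 ± 15.3 CPM at day 3 (log2 change -2.56 ± 0.16, adjusted p = 1.18e-08). *Hells* averaged 36.6 ± 5.28 CPM at day 35 and 215 ± 21.2 CPM at day 3 (log2 change -2.55 ± 0.18, adjusted p = 6.03e-08). *Lmnb1*, lamin B1, averaged 16.6 ± 1.95 CPM at day 35 and 129.5 ± 8.89 CPM at day 3 (log2 change -2.97 ± 0.15, adjusted p = 2.77e-09). *Dnmt3a*, a de novo methyltransferase on 2 rows, averaged 74 ± 6.77 CPM at day 35 and 24.4 ± 2.59 CPM at day 3 and was higher (log2 change 1.60 ± 0.14, adjusted p = 4.48e-07), as was *Hdac9* (log2 change 2.69 ± 0.40, adjusted p = 1.08e-04).

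Genes that restrain or accompany cell cycle exit did not rise as a group, with 7 of 27 higher and 11 lower. *Gadd45a*, a growth arrest and stress gene, was higher at 43.2, 68.2 and 78.1 CPM at day 35, against 8.1, 5.32 and 7.2 CPM at day 3 (log2 change 3.20 ± 0.23, adjusted p = 6.39e-08). *Ccnd1*, cyclin D1, which drives entry into S phase, was also higher, at 1380.3, 1394 and 1615 CPM at day 35, against 649, 449 and 565 CPM at day 3 (log2 change 1.40 ± 0.16, adjusted p = 6.94e-06), with all 3 day 35 libraries above day 3. *Btg2*, an anti-proliferative gene, had 127, 127 and 130.4 CPM at day 35, against 806, 718 and 752 CPM at day 3 (log2 change -2.56 ± 0.15, adjusted p = 1.04e-08). *Cdkn2c*, the CDK4/6 inhibitor p18, had 20.6, 20.4 and 21.3 CPM at day 35, against 139, 91.5 and 111 CPM at day 3 (log2 change -2.45 ± 0.22, adjusted p = 5.33e-07), and both were lower. *Mdm2* was not called (log2 change -0.31 ± 0.17, adjusted p = 0.202).

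Interferon-inducible genes were lower in 35 of 42 and higher in 3, at a median log2 change of -2.96. The higher ones were the receptor subunit genes *Ifngr1*, *Ifngr2* and *Ifnar1*, of which the last 2 were named after their values were seen. The count was 1 without day 35 replicate 1, day 3 replicate 1 or day 3 replicate 3. *Ifnar1* (log2 change 0.37) lost its call without those (0.30, 0.37 and 0.38), and *Ifngr2* (0.45) lost it when any 1 of the 6 libraries was left out (0.47, 0.46 and 0.45 without day 35 replicates 1, 2 and 3, and 0.49, 0.48 and 0.43 without those of day 3). *Ifngr1*, which binds interferon-gamma, had 63.9, 75.9 and 82.3 CPM at day 35, against 35.7, 34 and 36.4 CPM at day 3 (log2 change 1.07 ± 0.15, adjusted p = 6.05e-05). *Ifit1*, an RNA-binding antiviral protein, had 36.8, 34.4 and 26.8 CPM at day 35, against 338, 353 and 328 CPM at day 3. *Gbp2*, an interferon-induced GTPase, had 23, 20.9 and 18.3 CPM at day 35, against 333, 293 and 299 CPM at day 3. Both are named after their values were seen. *Rsad2*, viperin, had 2.49, 2.6 and 2.74 CPM at day 35, against 71.3, 61.3 and 76.7 CPM at day 3 (log2 change -4.74 ± 0.19, adjusted p = 2.71e-10). *Mx1*, an antiviral GTPase, had 0.906, 0.794 and 0.817 CPM at day 35, against 14.4, 22.1 and 15.9 CPM at day 3 (log2 change -4.37 ± 0.44, adjusted p = 2.01e-06). *Tgtp1*, which has a near-identical neighbour, had 26.7, 20.9 and 16.5 CPM at day 35, against 429.6, 405 and 459 CPM at day 3 (log2 change -4.33 ± 0.18, adjusted p = 5.18e-10). The 3 libraries of each day agreed within about 2-fold for these genes, and the days were far apart. All cultures had been expanded with interferon-gamma and were then kept without it. Time since its removal was shorter at day 3 and cannot be told apart from differentiation here. The *Ifit1* promoter (chr19:34640639-34640938, plus strand, GRCm38.p6, RefSeq) is shown because it carries the interferon-stimulated response element (GAAA, any 2 bases, GAAA) in 2 places in the 300 bases, on the reverse strand and in capitals.
Ifit1: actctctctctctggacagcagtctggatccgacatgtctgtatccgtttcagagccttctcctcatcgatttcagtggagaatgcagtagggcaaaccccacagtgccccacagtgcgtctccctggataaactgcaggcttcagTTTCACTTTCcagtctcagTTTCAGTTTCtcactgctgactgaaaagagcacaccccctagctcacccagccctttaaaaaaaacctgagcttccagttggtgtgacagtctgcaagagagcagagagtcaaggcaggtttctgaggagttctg
That motif is in 18 of the 30 promoters found for the list (60%) and in 3.49% of all promoters.

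Genes of antigen presentation were lower in 18 of 19 tested and higher in none, at a median log2 change of -2.26. *H2-Eb1*, an MHC class II chain, had 7.6, 4.22 and 5.88 CPM at day 35, against 431, 612 and 436 CPM at day 3 (log2 change -6.38 ± 0.28, adjusted p = 7.61e-10). *Ciita*, the class II transactivator, had 0.468, 0.902 and 0.695 CPM at day 35, against 5.93, 7.19 and 5.87 CPM at day 3 (log2 change -3.20 ± 0.31, adjusted p = 1.56e-06). *H2-K1*, an MHC class I heavy chain, had 213, 227 and 279 CPM at day 35, against 1542, 1940.4 and 1519 CPM at day 3 (log2 change -2.80 ± 0.16, adjusted p = 5.71e-09). *Nlrc5*, the class I transactivator, had 12.7, 9.56 and 9.07 CPM at day 35, against 94.5, 135 and 111 CPM at day 3 (log2 change -3.44 ± 0.19, adjusted p = 6.39e-09). The immunoproteasome subunit genes *Psmb8* and *Psmb9* averaged 23.6 ± 2.71 CPM at day 35 and 179 ± 34.3 CPM at day 3 for *Psmb8* and 10.6 ± 0.852 CPM at day 35 and 70.5 ± 12.3 CPM at day 3 for *Psmb9*. In every one of these genes the day 35 libraries lay under the day 3 libraries.

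**Figure D4:**
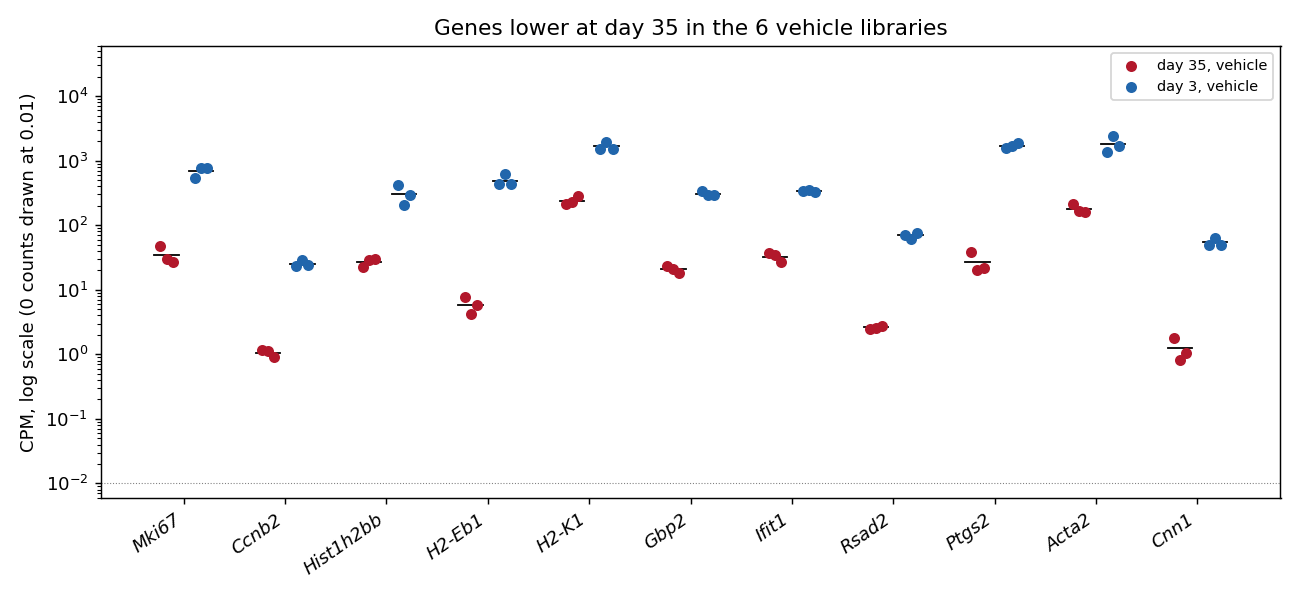
CPM of 11 genes that were lower at day 35, most of them of the cell cycle, interferon and contractile groups, in each vehicle library on a log axis, with day 35 in red at the left and day 3 in blue at the right of each gene; points are the 3 libraries and bars their means. All day 35 points lie below all day 3 points in each gene.

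Immediate-early genes, which respond to serum and growth factors within minutes, were lower in 22 of 24 and higher in none, with a median log2 change of -2.96. *Fosb* had 0.936, 0.686 and 0.817 CPM at day 35, against 22.1, 62.9 and 31.5 CPM at day 3 (log2 change -5.57 ± 0.47, adjusted p = 3.06e-07). *Egr2* had 7.16, 9.38 and 5.6 CPM at day 35, against 103, 93.1 and 95.7 CPM at day 3 (log2 change -3.72 ± 0.24, adjusted p = 1.82e-08). *Fosl1* had 0.468, 0.397 and 0.409 CPM at day 35, against 3.98, 11 and 6.15 CPM at day 3 (log2 change -4.04 ± 0.53, adjusted p = 3.37e-05). *Dusp5*, an ERK phosphatase, had 0.819, 0.577 and 0.572 CPM at day 35, against 14.9, 13.1 and 15.1 CPM at day 3 (log2 change -4.44 ± 0.40, adjusted p = 7.57e-07). *Nr4a1*, an orphan nuclear receptor, had 5.94, 2.6 and 2.17 CPM at day 35, against 73.8, 181 and 123 CPM at day 3, and its log2 change of -5.12 ± 0.55 was -5.72 without day 35 replicate 1. Day 3 replicate 2 was the highest library for *Fosb*, *Fosl1* and *Nr4a1*, and every day 3 library was above day 35.

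Contractile genes of smooth muscle type were lower in 17 of 20 and higher in none, at a median log2 change of -1.92. *Acta2*, alpha smooth muscle actin, had 211, 169 and 161 CPM at day 35, against 1372, 2425 and 1685 CPM at day 3 (log2 change -3.34 ± 0.21, adjusted p = 1.62e-08). *Cnn1*, calponin, had 1.81, 0.83 and 1.06 CPM at day 35, against 49.7, 64.2 and 50.1 CPM at day 3 (log2 change -5.44 ± 0.33, adjusted p = 1.13e-08). *Tagln*, transgelin, had 12.3, 11.7 and 11.7 CPM at day 35, against 83.5, 104 and 86.8 CPM at day 3 (log2 change -2.94 ± 0.15, adjusted p = 2.29e-09). *Ankrd1*, a target of YAP and of mechanical load, had 2.66, 3.43 and 3.02 CPM at day 35, against 156, 122 and 149 CPM at day 3 (log2 change -5.55 ± 0.28, adjusted p = 2.09e-09). *Ctgf* and *Cyr61*, matricellular targets of YAP, averaged 129.8 ± 15.9 CPM at day 35 and 1502 ± 712 CPM at day 3 for *Ctgf* and 235 ± 16 CPM at day 35 and 1729 ± 388 CPM at day 3 for *Cyr61*. These were lower without overlap at log2 changes of -3.53 ± 0.29 and -2.88 ± 0.17. *Myl9*, the regulatory light chain, chosen after its values were seen, had 76.5, 82.3 and 87.9 CPM at day 35, against 289, 272 and 239 CPM at day 3. Its promoter (chr2:156775214-156775513, plus strand, GRCm38.p6, RefSeq) is shown with the CArG box, the serum response factor motif, in capitals.
Myl9: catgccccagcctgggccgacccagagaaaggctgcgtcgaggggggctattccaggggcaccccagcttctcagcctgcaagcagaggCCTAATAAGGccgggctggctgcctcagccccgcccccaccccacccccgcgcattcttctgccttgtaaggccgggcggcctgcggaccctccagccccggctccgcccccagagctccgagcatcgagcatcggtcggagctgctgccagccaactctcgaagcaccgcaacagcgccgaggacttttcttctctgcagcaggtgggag
A CArG box on either strand is in 4 of the 17 promoters found for the contractile list (23.5%), in 2 of 19 for the immediate-early list (10.5%) and in 1.57% of all promoters. *Des* and *Tpm1* (10 rows) were not called (0.58 ± 0.73 and 1.75 ± 1.08).

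Adhesion and cell-shape genes were higher in 5 and lower in 9 of 28. *Itga10* and *Itga11*, which encode collagen-binding integrin chains, had 78.9, 80.6 and 74.7 CPM at day 35, against 6.95, 9.2 and 10.5 CPM at day 3 for *Itga10* and 133, 106 and 110.3 CPM at day 35, against 31.8, 41.4 and 40.2 CPM at day 3 for *Itga11*. Both were higher without overlap (3.14 ± 0.18 and 1.62 ± 0.17). *Tubb3*, a tubulin of neurons and of long cell processes, averaged 25.1 ± 3.63 CPM at day 35 and 4.08 ± 0.891 CPM at day 3 (log2 change 2.62 ± 0.25, adjusted p = 9.87e-07). *Nes*, nestin, an intermediate filament of progenitors, had 9.79, 13.3 and 15.5 CPM at day 35, against 95.1, 109 and 84.2 CPM at day 3 (log2 change -2.90 ± 0.18, adjusted p = 1.41e-08). *Vcam1* averaged 243 ± 39.7 CPM at day 35 and 608 ± 20.9 CPM at day 3 (log2 change -1.32 ± 0.16, adjusted p = 1.02e-05). *Fscn1*, an actin bundler, averaged 55.4 ± 16.7 CPM at day 35 and 206 ± 103 CPM at day 3 (log2 change -1.90 ± 0.32, adjusted p = 3.10e-04), and all 3 were lower. *Itgb1*, the common integrin chain, was not called (log2 change -0.24 ± 0.14, adjusted p = 0.201).

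Guidance molecules were higher in 13 and lower in 10 of 38. *Sema3e* had 1.52, 2.56 and 2.04 CPM at day 35, against 76.8, 68.5 and 90 CPM at day 3 (log2 change -5.27 ± 0.29, adjusted p = 4.86e-09). *Epha7*, an ephrin receptor on 2 rows, averaged 1.01 ± 0.195 CPM at day 35 and 12.6 ± 1.17 CPM at day 3 (log2 change -3.63 ± 0.22, adjusted p = 1.18e-08), and both were lower. *Sema3d* averaged 46.3 ± 18.9 CPM at day 35 and 6.79 ± 1.67 CPM at day 3 (log2 change 2.77 ± 0.30, adjusted p = 5.23e-06) and *Plxna2*, a semaphorin receptor, averaged 48.8 ± 23 CPM at day 35 and 8.12 ± 1.9 CPM at day 3 (log2 change 2.59 ± 0.33, adjusted p = 2.30e-05), both higher, and none of these groups overlapped. Notch pathway genes were higher in 3 and lower in 5 of 17 (3 lower without day 35 replicate 3), near the 50.2% of expressed genes called in either direction. The 3 higher were *Hey1*, *Jag2* and *Hes6*, at log2 changes of 4.687, 3.477 and 1.745. *Notch1* had 28.5, 14.6 and 15.4 CPM at day 35, against 62.3, 126 and 79.6 CPM at day 3 (log2 change -2.19 ± 0.31, adjusted p = 7.25e-05) and its ligand gene *Jag1* had 49.1, 50.7 and 60.7 CPM at day 35, against 118, 117 and 118 CPM at day 3 (log2 change -1.14 ± 0.18, adjusted p = 1.59e-04), both lower. Positional identity genes of the Hox clusters were higher in 5 and lower in 2 of 28, near the 29.9% called in either direction over all genes tested. The lower count was 1 without day 35 replicate 2, day 35 replicate 3 or day 3 replicate 2. The summed level of the list was only 74.9 to 81.4 CPM at day 35 and 63.1 to 100 CPM at day 3, and few counts limit calls. *Hoxd8* averaged 19.4 ± 1.32 CPM at day 35 and 7.28 ± 2.46 CPM at day 3 (log2 change 1.41 ± 0.24, adjusted p = 3.85e-04). *Hoxc13* averaged 3.39 ± 1.26 CPM at day 35 and 21.9 ± 10.9 CPM at day 3 (log2 change -2.68 ± 0.36, adjusted p = 3.41e-05). Among imprinted genes 6 of 16 were higher and 2 lower (1 without day 35 replicate 2 or 3 or day 3 replicate 2 or 3). *H19*, a maternally expressed long RNA, had 2935, 4491 and 5829 CPM at day 35, against 2501, 786 and 1578 CPM at day 3 (log2 change 1.45 ± 0.36, adjusted p = 0.00676). *Mest*, a paternally expressed gene, had 863, 542 and 519.7 CPM at day 35, against 1099, 1777 and 1408 CPM at day 3 (log2 change -1.15 ± 0.22, adjusted p = 9.63e-04). Day 3 replicate 1 came within reach of day 35 replicate 1 for *H19*, without overlap.

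Markers of other cell types were measured beside the bone genes. Chondrocyte markers were higher in 10 of 18 tested and lower in 1, at a median log2 change of 2.46, or 2.27 with genes at 0 on 1 day set to their bound. Their summed level was 2979.6 to 3972 CPM at day 35 and 1035 to 1174 CPM at day 3, most of it *Col11a1* (named after its values were seen), *Col11a2* and *Comp*, which bone cells also express. *Col2a1*, the defining cartilage collagen, on 2 rows, had 79, 28 and 48 counts at day 35 and 0, 0 and 0 at day 3, at least 77.1-fold higher, and the log2 change of *Col11a2*, 8.84, was 10.13 without day 3 replicate 1. The cartilage regulator *Sox9*, chosen after its values were seen, was lower, at 37.5, 12.6 and 13.4 CPM at day 35, against 46.4, 132 and 77.3 CPM at day 3 (log2 change -2.01 ± 0.46, and -2.71 without day 35 replicate 1). *Col10a1* was not called (log2 change 0.93 ± 0.40, adjusted p = 0.0943).

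Adipocyte markers were higher in 5 of 11 and lower in none (3 higher without day 35 replicate 3 or day 3 replicate 3), at summed levels of 66 to 79.9 CPM at day 35 and 32.8 to 48.3 CPM at day 3. *Adipoq*, adiponectin, had 169, 69 and 50 counts at day 35 and 0, 0 and 0 at day 3, at least 143-fold higher, and *Cfd*, adipsin, had 85, 68 and 52 counts at day 35 and 0, 0 and 0 at day 3, at least 102-fold higher. *Lpl* was not called (log2 change 0.43 ± 0.27, adjusted p = 0.242). The adipocyte genes *Fabp4* and *Pparg* were not called either, at fitted log2 changes of 1.67 and -1.62. Of the defining macrophage and osteoclast markers, *Ptprc*, *Itgam* and *Calcr* had 0 counts in all 6 libraries, and so did the endothelial marker *Pecam1*, though all 4 are on 2 rows of the files. *Csf1r*, the receptor of the macrophage growth factor, averaged 0.465 ± 0.12 CPM at day 35 and 0.167 ± 0.159 CPM at day 3. *Lyz2*, lysozyme, had 29.2, 25 and 28.5 CPM at day 35, against 5.56, 2.12 and 3.35 CPM at day 3 (log2 change 2.91 ± 0.29, adjusted p = 2.10e-06) and *Cd14*, a co-receptor of endotoxin, had 1.23, 1.15 and 1.02 CPM at day 35, against 6.78, 7.92 and 6.65 CPM at day 3 (log2 change -2.64 ± 0.32, adjusted p = 1.61e-05). With *Ctsk*, which bone-lineage cells also express, 2 of the 8 macrophage and osteoclast markers tested were higher and 1 lower. Of 7 endothelial markers tested only *Flt1* was called, lower at 0.24 ± 0.0314 CPM at day 35 and 2.64 ± 1.09 CPM at day 3, and without day 3 replicate 3 a further marker was called higher. *S100b* was the called neuron and glia marker of 10 tested, higher at 37.5 ± 4.91 CPM at day 35 and 9.23 ± 1.73 CPM at day 3. Stromal progenitor markers included 4 higher and 6 lower of 15, among the lower *Ly6a*, the stem cell antigen Sca-1, at 46.4 ± 13.4 CPM at day 35 and 353 ± 130.1 CPM at day 3, and *Mcam*, CD146, at 1.14 ± 0.208 CPM at day 35 and 10.3 ± 1.12 CPM at day 3. Among the higher were *Nt5e*, *Ctsk* and *Lepr*, with log2 changes of 2.74 ± 0.16, 2.00 ± 0.17 and 1.71 ± 0.34. The part of rare cells of other types in the bone results was not tested.

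The same 2 days were also sampled in untreated IDG-SW3 cells of the series, 3 libraries each, made with another library kit and listed as RPKM (reads scaled by gene length and library size). Of 9933 genes tested there, 29.5% were higher and 21.5% lower at day 35 (limma on log2(RPKM + 0.5), libraries centred on their median, adjusted p below 0.05). Both experiments tested 9372 genes. Of 1918 genes higher in vehicle cells, 1306 (68.1%) were also higher and 51 (2.66%) lower in untreated cells. Of 2168 lower in vehicle cells, 1351 (62.3%) were also lower and 23 (1.06%) higher. As shares of the untreated calls, these are 47.3% of 2764 higher and 66.4% of 2035 lower genes. Across genes, which are not independent, the log2 changes correlated at r = 0.759. Some lists matched, such as cell cycle genes, lower in 32 of 34 tested in untreated cells and higher in none. Others differed from vehicle cells. Cholesterol and fatty acid synthesis genes were higher in 4 and lower in 3 of 23 in untreated cells, at a median log2 change of -0.07. Collagen genes were higher in 8 and lower in 9 of 23 there, and glycolysis and hypoxia genes higher in 8 and lower in 4 of 24.

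**Figure D5:**
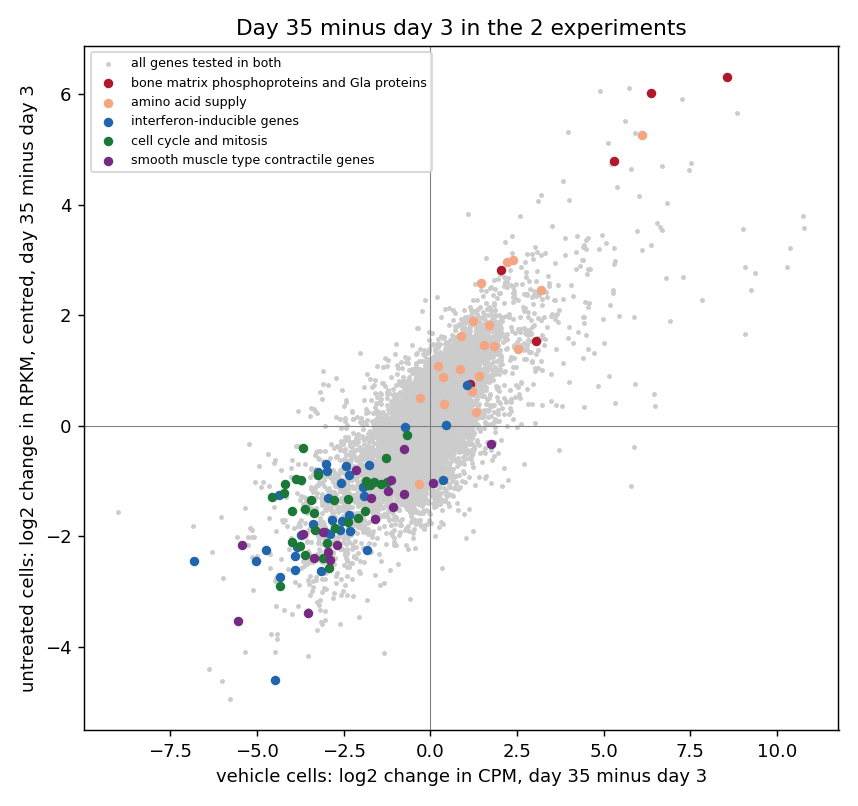
Log2 change in vehicle cells (CPM, horizontal) against centred log2 change in untreated cells (RPKM + 0.5, vertical), day 35 minus day 3, for the 9372 genes tested in both, with 5 gene lists in colour. Bone matrix and most amino acid genes lie at the upper right, and most cell cycle, interferon and contractile genes at the lower left. Lists that differed between the experiments, such as cholesterol synthesis and collagen genes, are not coloured.

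Single genes showed how far the experiments matched. *Ibsp* averaged 45.3 ± 17.6 RPKM at day 35 and 0.483 ± 0.213 RPKM at day 3 in untreated cells, a centred log2 change of 6.31 ± 0.34 against 8.55 ± 0.25 in vehicle cells. *Nupr1* averaged 368 ± 129.5 RPKM at day 35 and 15.7 ± 2.48 RPKM at day 3 (5.27 ± 0.22 in untreated cells against 6.09 ± 0.64, or 6.76 without day 3 replicate 3, in vehicle cells). *Mki67* averaged 1.9 ± 0.843 RPKM at day 35 and 30.4 ± 4.8 RPKM at day 3 (-2.91 ± 0.19). *H2-Eb1* was listed at 0, 0 and 0.231 RPKM at day 35, against 14.7, 35 and 17.2 RPKM at day 3 (-4.40 ± 0.34), and both genes were lower as in vehicle cells. The pseudocount compresses changes of genes near 0 RPKM. Levels of 4 osteocyte genes were below those needed for the test. *Sost* was listed at 0.522, 0.496 and 0.072 RPKM at day 35, against 0, 0 and 0 RPKM at day 3. *Mepe* was listed at 0, 0.238 and 0.035 RPKM at day 35, against 0, 0 and 0.103 RPKM at day 3. *Dmp1* had 0.314, 0.556 and 0.152 RPKM at day 35, against 0.117, 0.056 and 0.09 RPKM at day 3, and *Phex* had 0.211, 0.093 and 0.02 RPKM at day 35, against 0.059, 0.094 and 0 RPKM at day 3. The days did not overlap for *Sost* and *Dmp1* and overlapped for *Mepe* and *Phex*. *Itga11* was called in opposite directions, lower in untreated cells at 0.561 ± 0.13 RPKM at day 35 and 3 ± 0.0748 RPKM at day 3 (-0.91 ± 0.15, limma adjusted p = 1.25e-04) and higher in vehicle cells (1.62 ± 0.17).

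How the files list genes also touched the members. Of the gene symbols, 3470 are on several rows, and 25.7% of them had 0 counts, against 5.4% of the 21940 symbols on 1 row. Among genes with at least 5 RPKM in untreated cells these shares were 13.4% and 0.833%, and the median level in the vehicle libraries was 2.1 CPM for symbols on several rows and 62.7 CPM for those on 1 row. Levels of several-row genes such as *Cd44*, *Vcan* and *Tpm1* are therefore uncertain, and why such rows hold fewer counts was not tested.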

How the data were processed

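Counts per gene of the 12 libraries of the hormone experiment, 6 of them vehicle, were used as deposited. Their files are labelled RPKM by the authors but hold whole numbers that sum to the library depths, so the values were read as raw counts. The 18 untreated libraries were deposited as RPKM values, read as such from their size and decimals. Reads were aligned with TopHat (version not stated) to mm9, per the submitters' processing notes. The counting program, its annotation and whether strand was used are not given in the sources used here, so overlapping and antisense genes cannot be told apart.

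Rows of 1 symbol were summed for counts, and the row with the highest mean was taken for RPKM values. Genes passing edgeR's filterByExpr were fitted over the 4 groups of the hormone experiment (R 4.3.3, edgeR 4.0.16, TMM scaling, quasi-likelihood F-test, 8 residual degrees of freedom) with Benjamini-Hochberg adjustment, and an adjusted p below 0.05 was called. The SE is the log2 change divided by the square root of F. Untreated values of at least 1 RPKM in 3 libraries were log2-transformed with a pseudocount of 0.5, centred on each library's median and fitted with limma 3.58.1 (trend, 12 residual degrees of freedom). A fold change on that scale understates the change of low genes. Where all libraries of 1 day had 0 counts, the fold is a bound at a floor of 3 counts over the group, and intervals of low counts are exact at 95%. Floors and intervals cover counting error only.

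Members and the 42 gene lists (1105 entries) were chosen with earlier results of these data known. Genes were named by 1 rule. It took the 12 largest rises and falls among called genes with at least 5 CPM and no overlap, up to 8 called and 4 uncalled members of each list, the 10 highest protein-coding genes of each day, a fixed set of bone and interferon genes, list members detected on only 1 day, and genes called in opposite directions in untreated cells. Not all genes that met it are described, and those outside it are said to be named after their values were seen. Promoters are RefSeq's on GRCm38.p6, 27025 in all. The fits were tested on simulated data. Alternatives were other scalings, filters and pseudocounts, DESeq2 1.42.0, the vehicle libraries alone, a replicate block, 1 row per symbol and leaving out each library.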

Additional observations from a re-analysis of the deposited data

Results flagged for a closer look

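Of the genes of the text that were compared, 2 had all 3 day 35 libraries above all 3 day 3 libraries in vehicle cells and all below them in untreated cells. Over all genes tested in both experiments, 51 were called higher in vehicle and lower in untreated cells, and 23 lower in vehicle and higher in untreated cells. *Itga11*, the collagen-binding integrin alpha 11, had a log2 change of 1.62 in vehicle cells and -0.91 ± 0.15 in untreated cells. *Ifnar1*, an interferon receptor subunit, had 0.37 in vehicle cells and -0.98 ± 0.18 in untreated cells. The difference between the experiments was not tested, because their values were made in different ways and the libraries with different kits.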

How the results depend on the processing

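In vehicle cells the number of genes higher at day 35 (3101) lay between 2400 and 3900 and the number lower (2905) between 2172 and 3322 over all alternatives run, the highest of both with DESeq2. With 1 library left out, the ranges were 2400 to 3151 and 2172 to 2922. Scaling moved the median log2 change of all tested genes little, from 0.17 to 0.19 with DESeq2 size factors and 0.24 with upper-quartile scaling. Of 198 called genes of the text that were followed through the alternatives, none turned its direction and 7 lost their call in at least 1. Of the genes followed and not called, 4 were called in at least 1. The fitted changes of *Dspp* and *Fgf23*, both with few counts, took both signs with 1 library left out, from -2.30 to 5.18 for *Dspp* and from -3.01 to 2.18 for *Fgf23*. Deviations of libraries with the same replicate number correlated at -0.39, -0.14 and -0.03, none of them positive. Whether the number marks a shared batch or pairing was not tested. With a replicate block 2823 genes were higher and 2740 lower.

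In untreated cells 2934 genes were higher and 2139 lower. With values as listed and not centred 559 were higher and 5117 lower, so directions there rest on the centring. With no filter 8251 were higher, and with at least 3 RPKM in 3 libraries 1772, and the cause was not tested. With 1 library left out 2533 to 2698 were higher and 1750 to 2078 lower, and with a replicate block 3515 and 2437. Depth limits genes with few counts, in vehicle libraries of 28114286 to 46496429 counts.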

Other observations

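Along the chromosomes, 13 runs of at least 6 neighbouring tested genes were all called in 1 direction, a pattern looked at after the values were seen and given as a description. Histone cluster 1 on chromosome 13 held 3 of them, with 17, 13 and 8 genes. Their log2 changes lay between -3.52 and -1.81. A histone cluster on chromosome 3 gave a further run of 7 (-2.28 to -1.22). Other runs of falls had 10 genes on chromosome 1 (to *Sp100*, -3.13 to -1.06), 6 on chromosome 1 (to *Ifi205*, -4.32 to -1.06), 9 on chromosome 11 (to *Ifi47*, -4.33 to -0.65) and 7 on chromosome 3 (to *Gbp2*, -3.91 to -1.06). A run of 6 on chromosome 7, between *Gm4070* and *Gm8995*, fell by 4.17 to 6.84 on the log2 scale. Rises of 6 genes each were on chromosomes 2 (in 2 places), 6 and 19, the last from *Ppapdc2* to *Rcl1* (0.88 to 4.27). Neighbours in a family can share reads, and how reads on copies were counted is not given in the sources used here.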
